A study of Mus musculus with 13 samples.

Results

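Of 6 mouse mammary tumours with deposited read counts, tumours 4 and 5 carried Cdkn2a transcripts at a raw level above 20 CPM (counts scaled to a library total of 1000000), and the other 4 did not. These 2 tumours are called Cdkn2a-high here, and the split of 2 against 4 was made from the measured Cdkn2a counts, not from a label. Their raw levels were 81.5 and 77.2 CPM, while the nearest tumour below the threshold, tumour 2, was at 10.4 CPM and tumours 3, 6 and 1 were at 4.57, 1.44 and 0.602 CPM. These values chose the groups, so Cdkn2a itself is described without a test between them and is left out of every count of tested genes below.

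The series holds 13 samples, of which 10 had a column of counts, 6 tumours and 4 whole mammary glands. All 6 tumours came from Cre-positive mice, mated when 12 weeks old so that Cre would excise Fbxw7, and both groups therefore share that design. The glands came from Cre-negative mice mated at the same age. Fbxw7 encodes the part of an SCF ubiquitin ligase that binds its substrates, among them Myc and cyclin E. No source used here gives the promoter that drives Cre. The Cdkn2a-high group held the youngest and the oldest animal, of 19 and 53 weeks (tumours 4 and 5), against 25, 32, 39 and 25 weeks for tumours 1, 2, 3 and 6. Glands 1 to 3 came at 20 weeks and gland 4 at 40 weeks.

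Cdkn2a encodes a pair of unrelated proteins from alternative first exons. INK4A inhibits the cyclin D kinases CDK4 and CDK6 and so keeps the retinoblastoma protein active, while ARF binds the ubiquitin ligase MDM2 and so stabilises p53. The locus is kept silent by Polycomb proteins in most young tissues and is known to be switched on by oncogenic stress and in senescence. Cdkn1a, the p21 gene, is a direct p53 target that inhibits cyclin-dependent kinases. The counts are per gene symbol, so transcripts for INK4A and ARF could not be told apart.

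The start regions of Cdkn2a and Cdkn1a are shown because these are the genes that define and accompany the split. Both starts of Cdkn2a in RefSeq (build GRCm38.p6) lie on the minus strand, at chr4:89294570-89294869 and chr4:89282143-89282442, and the distal start of Cdkn1a lies on the plus strand at chr17:29090729-29091028. Each window runs from 250 bases before to 50 bases after the start. Capitals mark a match, on either strand, to an E2F motif (TTTCCCGC, TTTCGCGC, TTTGCCGC or TTTGGCGC) or to the p53 consensus, taken as a pair of adjacent half-sites with intact cores and at most 1 mismatch.
Cdkn2a start 1: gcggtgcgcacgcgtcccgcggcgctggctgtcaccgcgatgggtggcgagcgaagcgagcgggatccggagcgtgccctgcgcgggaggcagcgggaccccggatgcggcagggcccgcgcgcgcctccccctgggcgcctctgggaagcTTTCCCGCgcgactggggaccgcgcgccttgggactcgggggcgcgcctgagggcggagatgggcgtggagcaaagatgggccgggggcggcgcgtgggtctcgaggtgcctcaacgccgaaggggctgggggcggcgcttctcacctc
Cdkn2a start 2: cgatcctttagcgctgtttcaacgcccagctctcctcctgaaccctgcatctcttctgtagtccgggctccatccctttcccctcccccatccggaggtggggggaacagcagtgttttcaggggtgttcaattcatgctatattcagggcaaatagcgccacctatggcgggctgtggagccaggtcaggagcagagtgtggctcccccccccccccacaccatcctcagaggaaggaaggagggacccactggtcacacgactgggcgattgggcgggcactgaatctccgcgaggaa
Cdkn1a start 1: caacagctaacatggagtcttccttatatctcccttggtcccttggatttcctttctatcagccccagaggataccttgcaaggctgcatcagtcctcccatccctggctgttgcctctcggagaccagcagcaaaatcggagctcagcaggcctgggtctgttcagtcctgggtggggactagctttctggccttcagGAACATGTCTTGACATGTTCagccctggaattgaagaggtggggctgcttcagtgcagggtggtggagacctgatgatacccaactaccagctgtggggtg
The upstream Cdkn2a start held TTTCCCGC, and 2.26% of 32851 RefSeq start windows held an E2F motif. Windows of 1 chromosome were left out of every motif count here. The distal Cdkn1a window held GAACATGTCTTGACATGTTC, and 0.0548% of the 32851 windows held a p53 match by this rule. The other Cdkn1a start in RefSeq held no p53 match. Of 29 windows of the p53 targets listed below, 1 held a match. A match is a description of letters, and none of these data measured binding.

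Total counts were 45391449 and 38188173 in tumours 4 and 5 and 34865913 to 48325044 in the other 4 tumours. In the other group, 51.6% of counts in tumour 1 and 19.4% in tumour 6 fell on a list of 20 salivary gland markers, against at most 0.0398% in tumours 2 to 5. Lists are therefore also described without tumours 1 and 6, as 2 tumours against 2, where that moves them. Levels are CPM scaled by the trimmed mean of M-values (TMM), on 1 scale for tumours and glands. Defining markers of luminal epithelium were present in both Cdkn2a-high tumours, with Epcam at 722 and 369 CPM and Krt8 at 815 and 281 CPM. Fbxw7 was at 27.3 and 28.5 CPM in tumours 4 and 5 and at 14.99 to 46.5 CPM in the others. The excised part is not named in the labels, so a total over the gene does not check the deletion.

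Across 21848 genes other than Cdkn2a, none differed between the Cdkn2a-high and the other tumours in edgeR's quasi-likelihood test with Benjamini-Hochberg adjustment (0% of genes, lowest adjusted p = 0.9999, 2 against 4). At an unadjusted threshold of 0.05 edgeR gave 679 genes and limma-voom 396, with 0 after adjustment in both. DESeq2 called 84 genes higher (0.452% of 18592 with an adjusted p) and 55 lower (0.296%). In 60 of the 84 and 21 of the 55 the groups also did not overlap. By values alone, both Cdkn2a-high tumours lay above all 4 others in 650 genes (2.98%) and below all 4 in 892 (4.08%). With a ratio of group means of at least 2 as well, these were 392 (1.79%) and 448 genes (2.05%). An exact permutation test of a single value over 15 splits cannot give a two-sided p below 0.133, so none was run. What follows are levels and their separation, read against these shares. With fewer tumours more genes separate, and without tumours 1 and 6 the shares of all genes were 13.2% higher and 12.4% lower.

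Among the inhibitor genes that lay higher in the Cdkn2a-high tumours, Cdkn1a had the largest ratio between the groups. It was at 120 and 130 CPM in tumours 4 and 5, and at 18.2, 20.8, 6.25 and 27.5 CPM in tumours 1, 2, 3 and 6. The means were 125 ± 7.003 CPM (SD, n = 2) and 18.2 ± 8.88 CPM (SD, n = 4), a ratio of 6.88 and a log2 difference of 2.78 ± 0.57 (SE, edgeR). The groups were far apart, and without tumours 1 and 6 the log2 difference was 3.24. DESeq2 called Cdkn1a (adjusted p = 0.00905) where edgeR did not. In glands 1 to 3 Cdkn1a was at 10.2, 9.73 and 8.58 CPM, and in gland 4 at 74.5 CPM. Gland 4 differed in make-up, with 9.02% of counts on skeletal muscle markers and 37.5% on mitochondrial genes.

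Cdkn2b encodes INK4B, a relative of INK4A, next to Cdkn2a on the chromosome. It was at 17.01 and 20.2 CPM in tumours 4 and 5 and at 2.35, 5.03, 1.82 and 5.53 CPM in tumours 1, 2, 3 and 6. Both Cdkn2a-high tumours stood well clear of the highest other tumour, with a log2 difference of 2.33 ± 0.59 (SE, n = 2 and 4), and neither edgeR nor DESeq2 called it. The glands, at 12.5, 7.997, 8.41 and 3.51 CPM, lay between these groups or within the lower of them. Mtap, a methionine salvage enzyme on the other side of Cdkn2a, did not separate the groups, at 28.2 and 26.9 CPM against 17.3, 25.4, 67.1 and 24.6 CPM.

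The remaining inhibitors did not follow Cdkn2a. Cdkn2c, the gene of INK4C, was lower, at 7.71 and 7.66 CPM against 10.2, 21.1, 14.0 and 16.6 CPM (log2 difference -1.01 ± 0.49, SE), with 26.0 to 254 CPM in the glands. Cdkn1b, the p27 gene, was at 37.1 and 26.5 CPM within a range of 17.1 to 59.5 CPM in the others. Cdkn1c, the p57 gene, was at 1.48 and 1.18 CPM, between tumour 3 at 0.320 CPM and tumour 2 at 95.4 CPM. Of the 6 inhibitor genes, 2 lay above and 1 below all other tumours, against 2.98% and 4.08% of all genes. Their median log2 difference was -0.30, beside -0.16 over all genes tested.

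**Figure D1:**
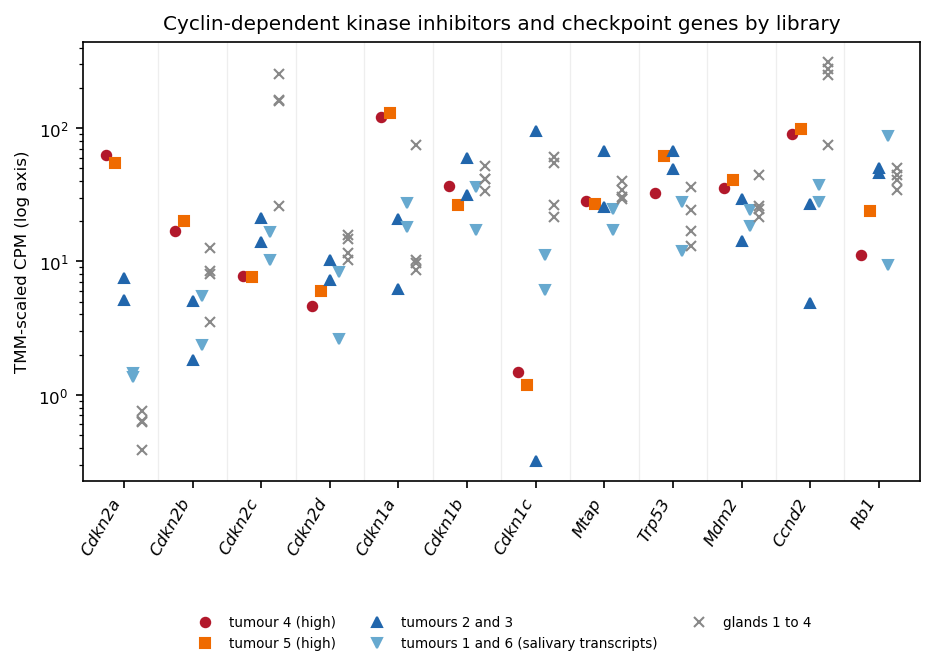
TMM-scaled CPM (log axis) of inhibitor and checkpoint genes in each library, with 1 symbol per library and colours for the 2 Cdkn2a-high tumours, the other tumours and the glands. Cdkn1a at 120 and 130 CPM and Cdkn2b at 17.01 and 20.2 CPM lie above all 4 other tumours, while Mtap, Trp53 and Rb1 overlap.

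Targets of p53 lay mostly higher in the Cdkn2a-high tumours. Of 30 listed targets, all tested, 11 lay above all 4 other tumours, which is 36.7% against 2.98% of all genes, and none lay below all 4 (4.08% of all genes). The median log2 difference was 0.72, beside -0.16 over all genes, and 25 of 30 were positive. Cdkn1a is among the 11 and was known to be high before the list was written, so the list gives no independent evidence of a direction. No target was called by edgeR, and DESeq2 called Cdkn1a and Pmaip1. Without tumours 1 and 6 the separated targets were 14 higher and 0 lower. They were 12 or 13, all higher, without any 1 of the other tumours, 20 higher without tumour 4, and 16 higher and 2 lower without tumour 5. The shares of all genes in those fits were 5.96% to 14.5% higher and 4.75% to 12.6% lower.

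The p53 feedback gene Mdm2, which encodes the ligase that ARF binds, was at 35.8 and 40.6 CPM in tumours 4 and 5. It was at 18.4, 14.3, 29.5 and 24.2 CPM in tumours 1, 2, 3 and 6, a log2 difference of 0.82 ± 0.43 (SE, n = 2 and 4). The gap between the groups was smaller than the spread among the 4 others. Eda2r, a receptor gene, was at 12.9 and 9.57 CPM against 2.08, 2.01, 1.43 and 4.33 CPM. Zmat3, an RNA-binding zinc finger protein, was at 42.0 and 32.8 CPM against 15.5, 17.2, 6.89 and 15.1 CPM. Neither gene overlapped between the groups, and the gap was wide against the spread of the 4 others. Their log2 differences were 2.19 ± 0.63 and 1.45 ± 0.47 (SE).

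The pro-apoptotic gene Bax was at 102 and 62.1 CPM in tumours 4 and 5 against 23.4, 50.5, 48.8 and 34.0 CPM. Trp53inp1, a stress-induced nuclear protein, was at 65.6 and 173 CPM against 15.8, 31.5, 49.7 and 48.0 CPM. Phlda3, an inhibitor of AKT signalling, was at 109 and 82.9 CPM against 22.0, 78.8, 8.002 and 41.5 CPM, so tumour 5 was only just above tumour 2. The other separated targets were Polk, Apaf1, Btg2 and Aen, with log2 differences of 0.54 to 0.76. Pmaip1, the NOXA gene, differed between the 2 Cdkn2a-high tumours, at 193 CPM in tumour 5 and 2.76 CPM in tumour 4, which lay within the 1.56 to 4.78 CPM of the others. Perp was at 276 and 681 CPM and overlapped the others at 158 to 672 CPM. Sesn1, Pltp, Ckap2, Ddb2 and Rrm2b had log2 differences below 0, from -0.49 to -0.24, and overlapped. Trp53 itself overlapped, at 32.3 and 61.9 CPM against 11.9, 49.7, 67.5 and 27.8 CPM (log2 difference 0.26 ± 0.68, SE). Mutations were not analysed here.

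**Figure D2:**
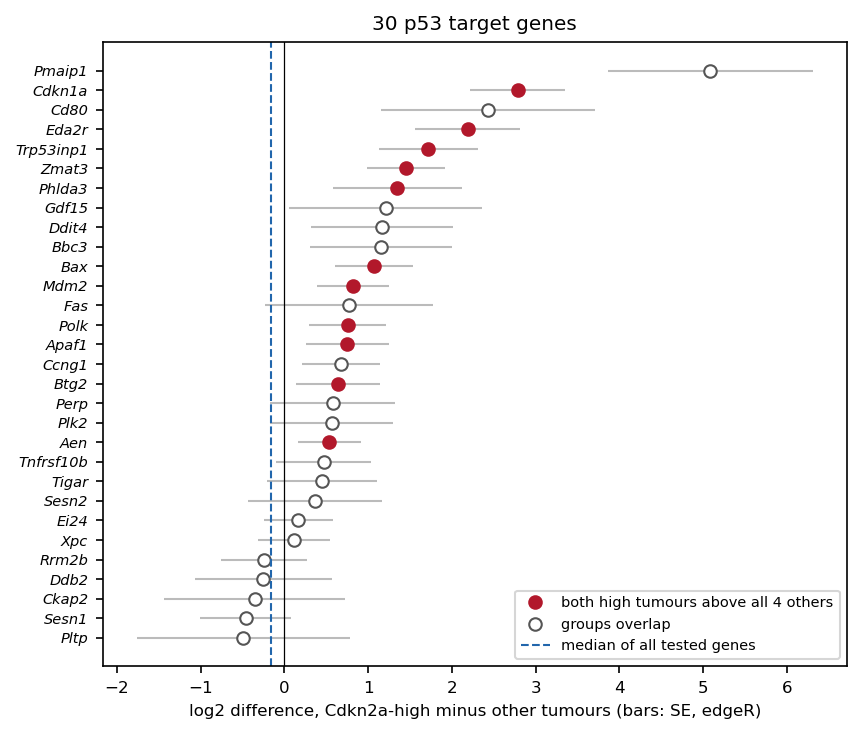
Log2 difference between Cdkn2a-high and other tumours for the 30 p53 targets, with standard errors from edgeR. Filled points are the 11 genes with both Cdkn2a-high tumours above all 4 others, and the dashed line is the median of all tested genes, -0.16.

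Genes of the retinoblastoma pathway and of cell division did not separate the groups as lists. Of 22 genes of the pathway, G1 cyclins and E2F factors, 1 lay above all other tumours and 1 below, against 2.98% and 4.08% of all genes. Their median log2 difference was 0.05. The gene above was Ccnd2, encoding cyclin D2, at 90.4 and 98.5 CPM against 27.8, 26.9, 4.88 and 37.7 CPM (log2 difference 1.96 ± 0.68, SE, and 74.5 to 314 CPM in the glands). The gene below was Cdc25a, a phosphatase that activates cyclin-dependent kinases, at 11.5 and 12.6 CPM against 12.9 to 30.3 CPM. Rb1, the retinoblastoma gene, was at 11.1 and 23.7 CPM in tumours 4 and 5. It was at 9.45 CPM in tumour 1 and at 49.8, 45.6 and 86.4 CPM in tumours 2, 3 and 6, so tumour 1 alone made the groups overlap (log2 difference -1.46 ± 0.83, SE).

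Ccnd1, Cdk4, Cdk6, Ccne1, E2f1 and E2f3 all overlapped, with log2 differences of -0.25 to 0.80. None of 36 E2F targets and none of 26 mitosis genes lay above or below all 4 other tumours, and the medians were -0.08 and -0.19 (0.06 and -0.06 with upper-quartile scaling). Summed mitosis levels were 861 and 752 CPM in tumours 4 and 5, between 117 CPM in tumour 1 and 2457 CPM in tumour 3. The proliferation marker Mki67 was at 31.9 and 33.4 CPM, against 6.91, 99.3, 143 and 34.9 CPM in tumours 1, 2, 3 and 6. Both lists depended on the tumours in the comparison. Without tumours 1 and 6, 9 E2F targets and 12 mitosis genes lay below both others and none above, with medians of -0.69 and -0.91, where 12.4% of all genes lay below. Without tumour 3, 14 and 8 lay above and none below, with medians of 0.78 and 0.68, where 11.7% of all genes lay above and 11.9% below.

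Regulators of the Cdkn2a locus also overlapped. None of 20 lay above or below all 4 other tumours, where 2.98% of all genes lay above and 4.08% below. Their median was 0.01 (-0.01 with RLE scaling). They included the Polycomb genes Bmi1, at 57.1 and 63.8 CPM against 38.9, 54.9, 95.5 and 48.9 CPM, and Ezh2, at 63.7 and 30.1 CPM against 19.2 to 70.8 CPM. The repressors Tbx2 and Tbx3 were at 1.46 and 1.46 CPM and at 2.11 and 1.81 CPM, within the others' ranges of 0.0246 to 3.19 CPM and 0.0985 to 12.5 CPM. Of 11 partners of ARF and regulators of p53, Mdm2 lay above and the DNA damage kinase gene Atm below, at 5.44 and 4.94 CPM against 5.49 to 31.7 CPM. Tumour 4 was only just below tumour 2 in Atm, and none of the 11 lay below with RLE or upper-quartile scaling. None of 18 genes of Fbxw7 and its substrates separated (median 0.19), Myc being at 46.5 and 28.5 CPM against 14.0 to 58.4 CPM. Of 30 Myc targets 1 lay above and 3 below (median -0.08), against 2.98% and 4.08% of all genes. Without tumours 1 and 6, 1 lay above and 12 below (median -0.40), against 13.2% and 12.4% of all genes. Without tumour 3 they were 6 above and 3 below (median 0.29), against 11.7% and 11.9% of all genes. Among the 3 below was Srm, spermidine synthase, at 14.9 and 17.01 CPM against 25.0 to 70.9 CPM.

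Squamous markers had mostly positive log2 differences. Of 12 tested squamous markers 3 lay above all 4 other tumours and none below, against 2.98% and 4.08% of all genes. Their median log2 difference was 1.66, and 11 of 12 were positive. Without tumours 1 and 6, 8 lay above both others and none below, with a median of 4.19, against 13.2% and 12.4% of all genes. The stress keratin Krt16 was at 12.5 and 22.6 CPM in tumours 4 and 5 and at 1.17, 0.357, 0.837 and 4.44 CPM in tumours 1, 2, 3 and 6, and was listed at 0 in every gland. Krt1, of the suprabasal epidermis, was at 10.1 CPM in tumour 4 but only 1.04 CPM in tumour 5, against 0.0739 to 0.651 CPM. Sbsn, the suprabasin gene, was at 11.1 and 113 CPM against 1.56 to 7.53 CPM. DESeq2 called Krt1 and Sbsn (adjusted p = 0.0326 and 0.0202). Of 9 basal and myoepithelial markers 5 were positive and 1 lay above all others, with a median of 0.20 that was -0.23 without tumour 5 and -0.21 without tumour 3. That gene, the basal keratin Krt14, was at 441 and 1847 CPM, with tumours 2 and 6 close below at 405 and 358 CPM. Krt5, its partner, overlapped, at 159 and 1216 CPM against 0.148 to 401 CPM. Luminal markers did not separate in either direction (0 of 10, median -0.05, and 0.02 with upper-quartile scaling).

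Secreted genes of the senescence programme were mixed. Of 29 tested, 3 lay above all others and none below, against 2.98% and 4.08% of all genes, with a median of 0.66. Serpinb2, a protease inhibitor of the serpin family, was at 3.40 and 5.42 CPM, at 0.444 CPM in tumour 6, and at 0 in tumours 1, 2 and 3. The matrix protease Mmp10 was at 2.30 and 0.944 CPM against 0.0596 to 0.139 CPM. It passed the filter for testing only through the Cdkn2a-high pair, so its p-value is not used. The chemokine Ccl20 was at 797 CPM in tumour 5 and at 2.19 CPM in tumour 4, against 0.0651 to 0.911 CPM. Il1b, Cxcl1 and Timp1 overlapped, and Il6 was too low to be tested. Without tumours 1 and 6, 15 of 28 lay above both others and none below, with a median of 1.62, against 13.2% and 12.4% of all genes. Without tumour 4 the median was 0.19, with 6 above and 2 below, against 14.5% and 12.6% of all genes. Without tumour 5 the median was 0.57, with 11 above and 2 below, against 12.4% and 11.3% of all genes. Of 8 nuclear and lysosomal senescence genes none separated (median -0.36), and summed levels of the list were 638 and 589 CPM against 324 to 1286 CPM.

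Neuregulin growth factor genes lay higher in both Cdkn2a-high tumours, without an edgeR call. Nrg1, an ErbB ligand, was at 7.69 and 12.0 CPM against 2.54, 2.34, 3.20 and 2.14 CPM, a log2 difference of 1.95 ± 0.55 (SE). Nrg2 was at 2.37 and 7.22 CPM against 0.222 to 1.18 CPM. They were the 2 of 12 ErbB receptor and ligand genes that separated, where 2.98% of all genes lay above and 4.08% below. The receptor genes Egfr, Erbb2, Erbb3 and Erbb4 overlapped. The median of the 12 was 0.50, and -0.83 without tumour 4. Among 17 genes of MAPK signalling 2 lay above, Hmga1 and the phosphatase Dusp4, the latter at 12.9 and 18.5 CPM against 2.28, 0.223, 3.10 and 6.55 CPM. The median of the 17 was 0.44, but -1.36 without tumour 4 and 1.2 without tumour 5. Single members separated in other lists, among them the Wnt effector Tcf7, at 26.1 and 25.6 CPM against 2.48 to 14.6 CPM, and the matrix protein Thbs1, at 118 and 82.5 CPM against 12.5 to 55.2 CPM. Adm, the adrenomedullin gene, was at 5.99 and 14.8 CPM against 0.402 to 4.19 CPM. Of 21 collagen and matrix genes Thbs1 alone lay above all 4 others and none below, with a median of -0.47. Without tumours 1 and 6, 12 lay above and none below (median 1.28), against 13.2% and 12.4% of all genes. Without tumour 6 alone, 10 lay above and none below (median 1.72), against 6.1% and 4.75% of all genes.

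**Figure D3:**
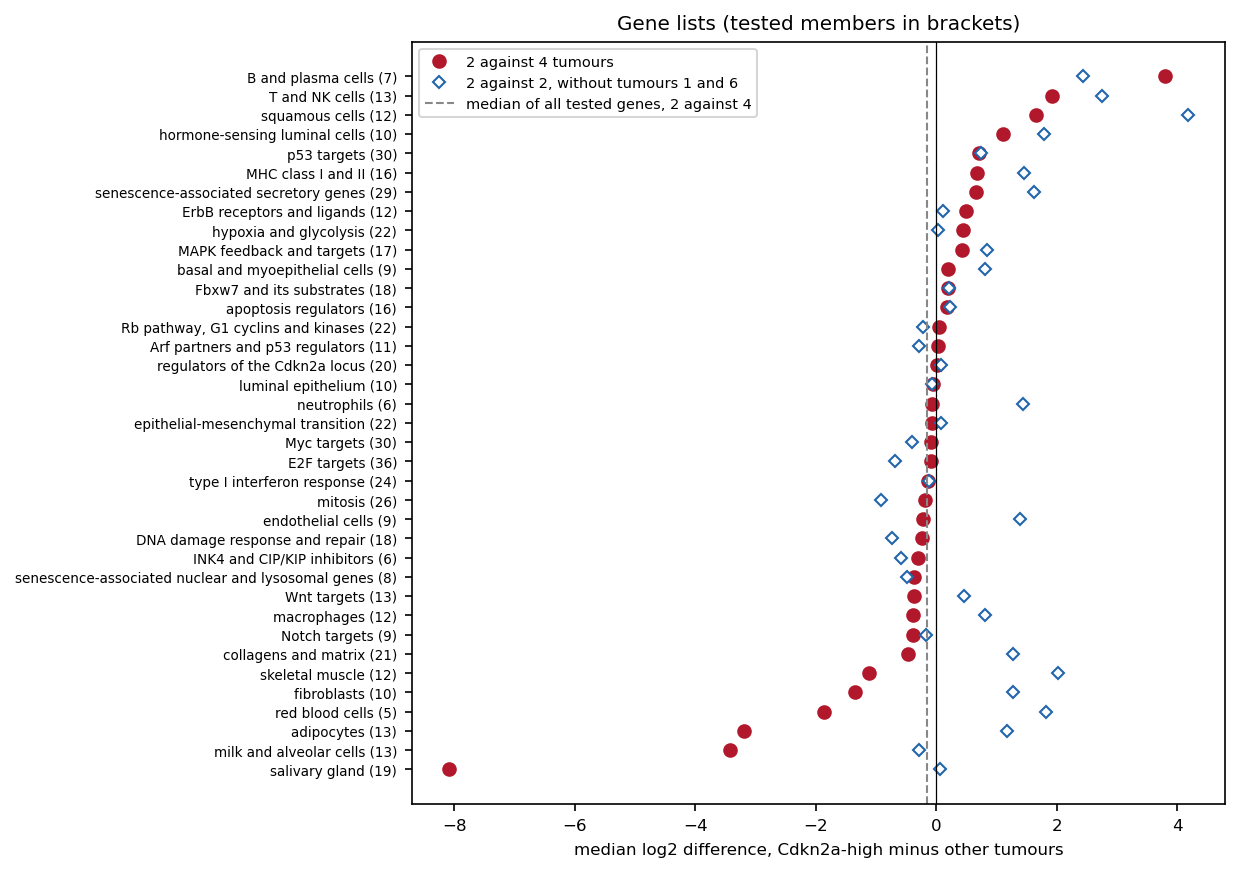
Median log2 difference of each gene list between Cdkn2a-high and other tumours (filled), and without tumours 1 and 6 (open diamonds), with tested members in brackets. The median of p53 targets is 0.72 and 0.75, while that of fibroblast markers is -1.35 and 1.27.

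Genes with the largest separation were chosen by the smallest edgeR p-value among non-overlapping genes at least 2-fold apart and above the median level, 10 in each direction, since none was called. Because p-values chose these genes, none is printed for them. Hunk, a kinase gene of the AMPK-related family, had like levels in both Cdkn2a-high tumours. It was at 13.6 and 17.9 CPM against 2.28, 1.28, 1.40 and 1.25 CPM (log2 difference 3.35 ± 0.54, SE). The other 9 higher genes were carried mainly by tumour 5. The level filter used the mean of all 6 tumours, and the 4 others had means of at most 1.55 CPM in these 10 genes. They passed the filter of 5.6 CPM only through the Cdkn2a-high pair, so the filter itself favours genes very high in a single tumour. Dsg1a, a desmosomal cadherin, was at 254 CPM in tumour 5 and 9.10 CPM in tumour 4, against at most 0.278 CPM. Mmp7, a matrix protease of glandular epithelium, was at 204 and 0.612 CPM, and Msln, the mesothelin gene, at 457 and 3.59 CPM. The B lymphocyte transcription factor genes Spib and Pou2af1 were at 421 and 135 CPM in tumour 5 and at 6.55 and 3.88 CPM in tumour 4, with 0.369 to 2.02 and 0.417 to 1.28 CPM in the others. Far2, Pmp2, Rab38 and Ccl20 completed the list. Tumour 4 was above the other 4 tumours in each, but by far less than tumour 5.

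Most of the 10 lower genes had like levels in tumours 4 and 5. Ndrg2, a stress-response gene, was at 3.59 and 4.998 CPM against 18.2, 23.2, 31.9 and 24.9 CPM, a log2 difference of -2.52 ± 0.49 (SE). Ntrk2, a neurotrophin receptor gene, was at 6.19 and 5.66 CPM against 52.4, 56.1, 141 and 23.0 CPM. The growth hormone receptor gene Ghr was at 10.5 and 9.14 CPM against 105, 42.4, 37.4 and 74.5 CPM. All 3 were picked as below every other tumour, so that holds without tumours 1 and 6 as well, apart from rescaling. Their log2 differences were then -2.65, -4.02 and -1.99. Plet1, an epithelial surface protein, was at 16.4 and 24.4 CPM against 84.1 to 295 CPM. Wfdc12, a secreted protease inhibitor, was at 1.80 and 8.90 CPM, against 22472, 1807, 45.0 and 6677 CPM in tumours 1, 2, 3 and 6. The highest 2 are the tumours with salivary transcripts, and the part of these in its difference was not tested. Bmper, Paqr6, Mtus1, Shank2 and Rab4a were the others, with log2 differences of -4.17 to -1.80. Elf5, the alveolar transcription factor, was lower as a single member of 13 tested milk and alveolar genes, at 112 and 37.8 CPM against 174, 199, 315 and 352 CPM.

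**Figure D4:**
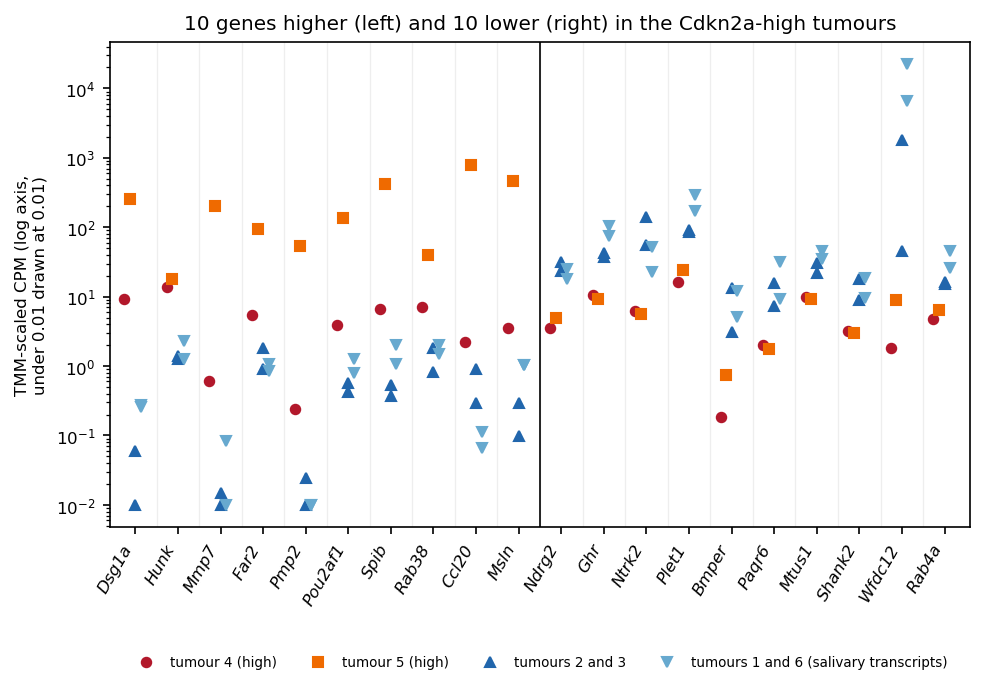
TMM-scaled CPM (log axis) of the 10 higher and 10 lower genes in each tumour. On the left, tumour 5 (squares) lies above tumour 4 (circles) for all 10 genes, by 254 to 9.10 CPM in Dsg1a, while on the right both lie below the other 4 tumours. The genes on the left passed the level filter only through these Cdkn2a-high tumours.

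The Cdkn2a-high tumours did not resemble each other most over all genes. Their Spearman correlation over tested genes outside the salivary list was 0.884, while tumour 4 correlated at 0.930 with tumour 3 and tumour 5 at 0.903 with tumour 6. Between tumours 4 and 5, 1301 genes were more than 4-fold apart on the log2(CPM + 1) scale, against 529 between tumours 4 and 3 and 1045 between tumours 5 and 6. A chi-square of their counts, which weights abundant genes, was lowest for the pair of tumours 4 and 5 of all 15 pairs, at 412 per degree of freedom, far above sampling noise. These libraries are therefore not copies of each other.

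Immune genes differed widely within the pair, as did skeletal muscle markers, which summed to 3.91 CPM in tumour 4 and 345 CPM in tumour 5. Summed T and NK cell markers were at 111 CPM in tumour 5 and 8.52 CPM in tumour 4, against 10.5 to 24.4 CPM in the other tumours. B and plasma cell markers summed to 195 and 3.64 CPM, against 8.54 to 128 CPM, and the follicular receptor gene Cr2 alone was at 82.1 CPM in tumour 5 and 0.204 CPM in tumour 4. Genes of MHC class I and II summed to 5962 and 428 CPM and those of the type I interferon response to 1877 and 199 CPM, so tumour 5 was highest and tumour 4 lowest of all 6 tumours in both. Medians of 1.93 for T and NK cells, 3.79 for B cells and 0.67 for MHC genes rested on tumour 5. Without it they were -2.04, -1.85 and -1.82, and that of interferon genes moved from -0.14 to -2.28. Their part in the 9 higher genes led by tumour 5 was not tested. Fewer cells of a type and less RNA per cell cannot be told apart in whole tissue.

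**Figure D5:**
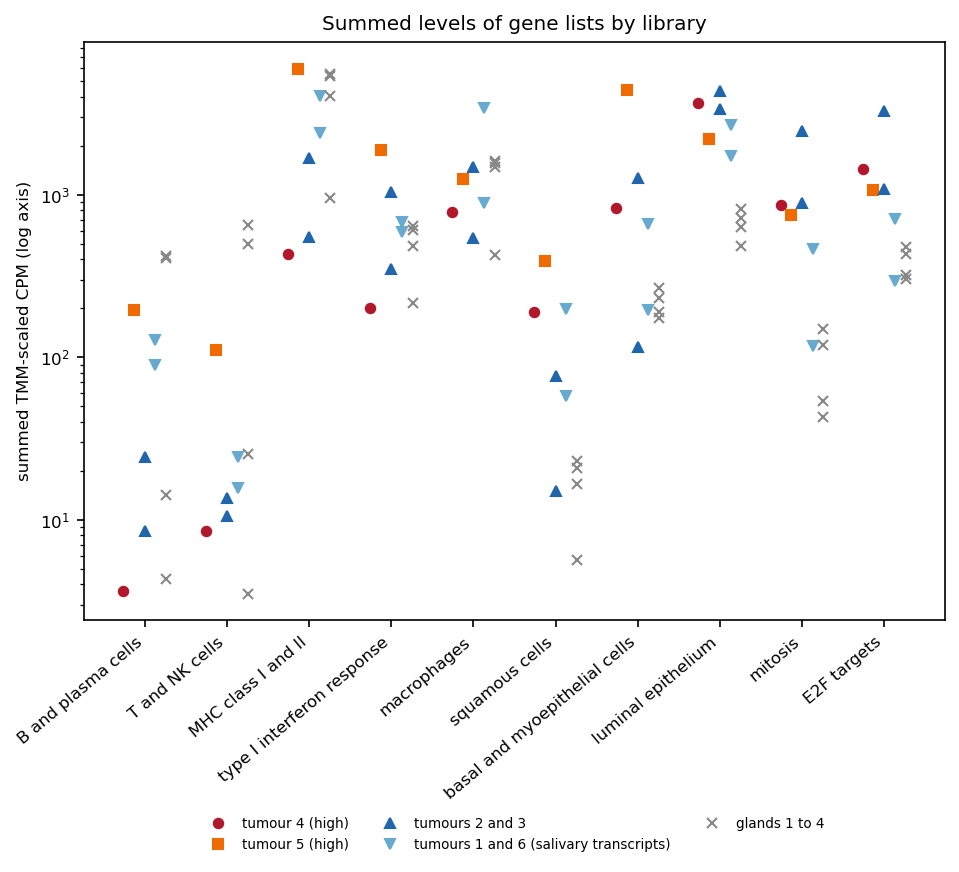
Summed TMM-scaled CPM (log axis) of gene lists in each library. Tumour 5 is highest and tumour 4 lowest of the 6 tumours for MHC and interferon genes, while both lie inside the range of the other tumours for mitosis genes and E2F targets.

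Stromal and secretory markers changed the sign or size of their medians when tumours 1 and 6 were left out. The medians of fibroblast, adipocyte, skeletal muscle and red blood cell lists were -1.35, -3.20, -1.11 and -1.87, and 1.27, 1.17, 2.02 and 1.82 without tumours 1 and 6. Then only 10 of 13 adipocyte genes were tested, so the adipocyte medians are not over the same genes. Members above both others were then 4 of 10, 2 of 10, 0 of 12 and 1 of 5. Those below were 1, 1, 0 and 0, against 13.2% above and 12.4% below of all genes. Single members stood below all 4 others, Pdgfra among 10 fibroblast genes, at 10.4 and 8.68 CPM against 16.3 to 44.2 CPM, and Pnpla2 among 13 adipocyte genes. Milk and alveolar genes had a median of -3.42, and -0.28 without these tumours. Macrophage, neutrophil and endothelial lists had medians of -0.38, -0.07 and -0.22, with no member separated. These were 0.82, 1.45 and 1.40 without tumours 1 and 6. Then 1 of 12, 2 of 5 and 3 of 9 tested members lay above and none below, against 13.2% and 12.4% of all genes. Of 10 markers of hormone-sensing luminal cells 1 lay above all others and none below, with a median of 1.12 that was 0.14 without tumour 5 and 0.29 with age as a covariate. Of 16 apoptosis regulators 2 lay above and none below (median 0.18), where 2.98% of all genes lay above and 4.08% below. None of 9 Notch targets and none of 22 genes of epithelial-mesenchymal transition separated (medians -0.39 and -0.08). Of the 22, 8 lay above and 2 below without tumours 1 and 6 (median 0.07), against 13.2% and 12.4% of all genes. The Notch median was 0.19 without tumour 2, 0.12 without tumour 1 and 0.21 with limma-voom. Of 18 genes of DNA damage response and repair 1 lay below, Atm (median -0.24), and none did with RLE or upper-quartile scaling. Without tumours 1 and 6, 6 lay below and none above (median -0.73), against 12.4% and 13.2% of all genes. Without tumour 3, 3 lay above and 1 below (median 0.41), against 11.7% and 11.9% of all genes. The part of salivary or other tissue in these values was not tested.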

How the data were processed

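RNA of whole tissue was sequenced from polyA libraries made with a NEBNext Ultra kit, per the labels' protocols. The authors deposited whole-number read counts per gene symbol for 38279 symbols and 10 libraries. Salmon 1.2.0, DESeq and mm9 are named, per the submitters' processing notes, without roles, so no source used here says how counts were made from reads, and reads of near-identical genes may have been divided by a model. Start regions are from RefSeq tables of build GRCm38.p6, another build than mm9, matched by symbol. The 3 purified epithelium samples were not analysed here.

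The 6 tumours were split by raw Cdkn2a CPM (count divided by column total) at 20. The test was that of edgeR 4.0.16 (R 4.3.3): filterByExpr, TMM, quasi-likelihood F test, Benjamini-Hochberg threshold 0.05, tumours only, no covariate. The biological coefficient of variation was 0.783. Standard errors are the log2 difference divided by the square root of F. Gland levels were scaled by TMM against the tumours' reference library. The script was tested on simulated data. Alternatives were RLE and upper-quartile scaling, TMM without the salivary list, other filters, DESeq2 1.42.0, limma-voom 3.58.1, age as a covariate, a fit with the glands, and leaving out tumours.

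The members, the gene lists and the rule for named genes were chosen with earlier results of these data known. Named genes were 19 fixed genes, the 10 in each direction, not overlapping, at least 2-fold apart and above the median level of 5.6 CPM, with the smallest edgeR p-value (unnamed gene models, mitochondrial genes, antigen receptor segments and salivary markers left out), and up to 3 separated members per list and direction. Other members of the lists are named with their values and were chosen after these were seen. Whether every library is a separate animal is not stated, and p-values then cover library-to-library spread, which may be technical. No batch is given in the labels.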

Additional observations from a re-analysis of the deposited data

Results flagged for a closer look

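Single libraries far from the rest of their group were looked for in 56 sets of values, for the 19 fixed genes in tumours and in glands and for cell type lists, p53 targets, E2F targets and mitosis genes in tumours, by the gap to the nearest library over the whole range. The threshold flags about 1 in 20 sets of independent, normally distributed values. These sets are skewed and partly related, so that rate does not hold for them, and 17 were flagged. Cdkn2a was among the 19 genes and was not flagged. Tumour 5, of the Cdkn2a-high pair, stood above the other tumours in summed basal and myoepithelial markers (4424 CPM, next highest 1269 CPM) and in T and NK cell markers (111 CPM, next 24.4 CPM).

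Tumour 3 stood above the others in Mtap (67.1 CPM, next 28.2 CPM) and in summed mitosis genes (2457 CPM, next 893 CPM), and tumour 2 in Tbx3 (12.5 CPM, next 3.91 CPM). Tumour 6 stood above the others in summed milk and alveolar genes (34108 CPM), fibroblast markers (6632 CPM), macrophage markers (3425 CPM), skeletal muscle markers (1120 CPM) and red blood cell markers (2251 CPM). Tumour 1 did so in endothelial markers (446 CPM) and in salivary gland markers (51.6% of counts). Gland 4 stood apart from the other glands in Cdkn1a (74.5 CPM), E2f1 (2.17 CPM), Ccne1 (0.702 CPM), Fbxw7 (83.9 CPM) and Bmi1 (74.2 CPM). In that library 9.02% of counts fell on skeletal muscle markers and 37.5% on mitochondrial genes. In glands 1 to 3 these were 0.0049% to 1.69% and 12.8% to 14.0%. The causes were not tested.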

How the results depend on the processing

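Without any 1 of the tumours the number of genes called by edgeR was 0 to 20, the 20 in the fit without tumour 4, where tumour 5 alone stood for the group and is assumed to vary like the others. They were all higher in tumour 5 and included Ccl20, Mmp7, Spib and Pmaip1. DESeq2 called 139 genes, and every other alternative run called 0. The number of genes that did not overlap and were at least 2-fold apart was 840. It was 1555 with no filter, 497 with CPM above 1 in at least 2 tumours, 2492 without tumours 1 and 6, and 1173 to 4421 without any 1 tumour (2446 without tumour 3, 4421 without tumour 4, 3577 without tumour 5 and 1306 without tumour 6). More genes tested or fewer samples raise such counts by construction. Upper-quartile scaling gave 423 higher and 375 lower against 392 and 448.

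Of 70 named genes 57 kept their direction in every alternative that gave them a value, 16 for each except Mmp7, Pmp2 and Smr2, which had fewer. Genes named because their groups did not overlap keep their direction by construction when tumours are left out, apart from rescaling. Without tumours 1 and 6 the log2 difference changed sign in Trp53 (-0.28), E2f3 (-0.19), Ccnd1 (-0.46), Cdk4 (-0.21), Bmi1 (-0.28), Ezh2 (-0.22) and Tbx2 (1.42). Bmi1 was at -0.013 with RLE scaling and with DESeq2 and at -0.038 with age as a covariate, and Tbx2 at 1.18 with limma-voom and 0.36 with age. Leaving out any 1 tumour gave ranges that crossed 0 in Mtap (-0.48 to 0.29), Trp53 (-0.25 to 0.66), E2f1 (-0.69 to 0.28), E2f3 (-0.10 to 0.38), Myc (-0.50 to 0.24), Ccnd1 (-0.32 to 0.70), Ccne1 (-0.21 to 1.57), Cdk6 (-1.17 to 0.34), Fbxw7 (-0.41 to 0.17), Bmi1 (-0.11 to 0.34), Ezh2 (-0.34 to 0.78) and Tbx2 (-0.61 to 0.33). The causes were not tested. No paired analysis was possible because the labels give the tumours no shared replicate numbers and the groups were split from the data. With 2 tumours in a group, a gene that misses the threshold may still differ.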
